A study of Mus musculus with 2 samples.

Results

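The genes described here are 34 antiviral genes induced by type I interferon, chosen by symbol from a list and not by their values. Of these, 32 are analysed, out of 32285 genes in the count tables; Mx1 and Mx2 were not analysed here. They were measured by single-cell RNA sequencing of tumours grown from MC38 cells, a mouse colon carcinoma line, in female C57BL/6 mice that were given LC427 or were left as vehicle controls. Tumours were taken on day 14, digested, cleared of dead cells and enriched for cells bearing CD45, the leukocyte surface protein that Ptprc encodes, so both libraries hold mainly immune cells of a tumour grown from 1 line. The series title names the protein LRBA and the loss of the checkpoint receptor CTLA4, and LC427 is a code name for which the sources used here give no structure. There was 1 library of each kind, and neither labels nor design text say how many mice went into either.

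Type I interferons are secreted proteins that bind the receptor IFNAR, made of the chains Ifnar1 and Ifnar2, on nearly every cell. The receptor's kinases JAK1 and TYK2 phosphorylate STAT2, which enters the nucleus in a complex with IRF9 that binds the interferon-stimulated response element in the promoters of many genes. Their products sense or bind viral nucleic acid, block translation and virus release, or feed back on the pathway itself. Interferon gamma acts through a receptor of its own and induces many of the same genes, so a high level of a listed gene does not name the interferon behind it. In tumours this programme is known from monocytes, macrophages and dendritic cells, and from tumour cells themselves.

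The response element can be read in the promoters of several of these genes. RefSeq's promoter table for GRCm38.p6, covering 250 bases before to 50 bases after each start, held 25 of the 34 symbols. A core of GAAANNGAAA on either strand, where N is any base, was found in a promoter of 14 of these 25 genes (56%). The same held for 3.99% of all 27025 genes of the table. The STAT dimer element TTCNNNGAA was found for 6 of the 25 genes (24%) and for 9.55% of all genes. The promoters below belong to members whose values recur in the results, and the Ifit3 pair shows how alike those copies are. Each runs 5′ to 3′ along the gene's strand, with core matches in capitals.

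Isg15: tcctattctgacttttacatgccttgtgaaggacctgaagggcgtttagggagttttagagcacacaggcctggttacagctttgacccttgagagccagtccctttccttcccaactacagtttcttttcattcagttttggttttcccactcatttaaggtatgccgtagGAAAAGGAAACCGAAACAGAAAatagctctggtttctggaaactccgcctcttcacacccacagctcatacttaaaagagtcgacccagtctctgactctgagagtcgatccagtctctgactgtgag
Bst2: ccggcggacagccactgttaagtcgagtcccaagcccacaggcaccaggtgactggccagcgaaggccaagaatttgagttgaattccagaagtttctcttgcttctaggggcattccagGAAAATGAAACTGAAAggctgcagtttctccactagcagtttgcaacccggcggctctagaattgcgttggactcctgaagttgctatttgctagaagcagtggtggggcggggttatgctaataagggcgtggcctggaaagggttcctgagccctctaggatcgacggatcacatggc
Rsad2: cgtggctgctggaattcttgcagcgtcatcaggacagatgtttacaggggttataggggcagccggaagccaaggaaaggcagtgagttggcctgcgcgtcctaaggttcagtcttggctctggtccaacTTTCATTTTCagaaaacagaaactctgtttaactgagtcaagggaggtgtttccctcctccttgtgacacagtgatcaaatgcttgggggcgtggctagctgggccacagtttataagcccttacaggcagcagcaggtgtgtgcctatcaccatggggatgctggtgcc
Ifit3: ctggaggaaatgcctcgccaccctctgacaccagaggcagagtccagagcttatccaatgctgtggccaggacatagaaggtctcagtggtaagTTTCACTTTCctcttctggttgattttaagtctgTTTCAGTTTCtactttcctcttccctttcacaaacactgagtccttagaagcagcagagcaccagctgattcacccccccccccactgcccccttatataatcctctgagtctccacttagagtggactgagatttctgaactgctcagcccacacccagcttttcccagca
Ifit3b: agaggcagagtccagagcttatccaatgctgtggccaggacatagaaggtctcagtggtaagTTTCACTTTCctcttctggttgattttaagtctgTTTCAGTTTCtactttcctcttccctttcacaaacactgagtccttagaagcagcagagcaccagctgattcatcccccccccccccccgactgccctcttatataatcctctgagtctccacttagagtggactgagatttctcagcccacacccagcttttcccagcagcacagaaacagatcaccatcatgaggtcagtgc

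The window of Isg15 lies at chr4:156200769-156201068 on the minus strand and holds 3 overlapping matches, starting 78 to 66 bases before the transcription start. For Bst2 it lies at chr8:71537423-71537722, minus strand, with 2 overlapping matches at 130 and 124 bases before the start. Rsad2 lies at chr12:26456403-26456702, minus strand, with 1 match on the opposite strand, 120 bases before the start. The Ifit3 window at chr19:34583279-34583578 and the Ifit3b window at chr19:34607707-34608006, both on the plus strand, hold 2 matches each on the opposite strand. Over 260 aligned bases these 2 windows were 99.6% identical, and the longest transcripts of the genes were 98.0% identical over 1697 bases. Oas1a and Oas1g transcripts were 97.7% identical over 1859 bases, so the division of reads within each of these pairs is uncertain. Several members are also neighbours in GRCm38: the 4 Ifit genes lie within 99.3 kb of chromosome 19, Oas1a, Oas1g, Oas2 and Oas3 within 177 kb of chromosome 5, and Rsad2 and Cmpk2 12751 bases apart on chromosome 12. No match of either motif in a window says only that these letters are not in it.

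The vehicle library held 33711726 unique molecular identifiers (UMIs, counted RNA molecules) and the LC427 library 28732435, and 5025 and 6008 cells were kept. Cells of the vehicle library were deeper, with a median of 3494 against 2356 UMIs, their median mitochondrial share was 2.24% against 1.40%, and 49 cell barcodes occurred in both libraries. Clusters were formed without the listed genes and the other interferon lists read below, and were named from marker genes. Interferon-related genes outside those lists were not left out. Monocyte/macrophage-like cells made up most of both libraries, with 3386 vehicle and 3864 LC427 cells, and fell into 8 states that are called by leading genes, beside a cluster led by Neat1 (60 and 78 cells) that was put in no state. Conventional dendritic-like cells (172 and 395), mature regulatory dendritic-like cells (137 and 159), CD8 T-like cells (332 and 434), NK-like cells (350 and 142) and tumour-like cells (176 and 369) were the other classes compared, each with at least 100 cells in each library. Cells with both T and myeloid markers (109 and 375) were set aside. Tumour-like cells had passed the CD45 selection although a Ptprc UMI was found in 5.68% and 5.69% of them. Their summed macrophage markers stood at 219 and 121 CPM, against 5942 and 5367 CPM in empty droplets.

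Levels are UMIs per 1000000 UMIs of the same cells (CPM), and where a pair of levels is given the first is vehicle and the second LC427. They come from the 5′ ends of transcripts and are not divided by length, so levels of different genes are compared only in order of magnitude. Intervals are 95% and cover counting error alone; since molecules of 1 cell are not independent and there is 1 library a group, they are too narrow for a statement about the treatment, and no test was possible. "Higher" and "lower" below mean at least 1.5-fold in LC427 over vehicle among genes with at least 20 UMIs. Droplets of 10 to 100 UMIs, taken as empty, give the level of free RNA. In cells pooled by class, a larger share of expressing cells and more RNA per cell cannot be told apart.

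Across the cells of both libraries, most listed genes had their highest level in 2 macrophage states. The state led by Plac8 and Ly6c2, genes of inflammatory monocytes, held the highest level of 16 of 32 members in vehicle and of 20 in LC427. Ifitm6 and Ifi204, which are outside the lists left out of clustering, were also leading genes of its cluster. A state led by the collagenase gene Mmp13 and the heat shock gene Hspa1b held the highest level of 8 members in vehicle and of 6 in LC427. Those 6 were Ifit1, Ifit2, Ifit3, Ifit3b, Rsad2 and Cmpk2. Rsad2 and Cmpk2 were also among the 10 leading genes of that state, although clustering had not used them. Summed over all 32 members, the level was 6513 and 5591 CPM in the Plac8 Ly6c2 state and 3503 and 2870 CPM in the Mmp13 Hspa1b state. Between these stood 2 classes of under 100 cells a library. CD4 or regulatory T-like cells had 4995 and 2872 CPM, of which Ifi27l2a alone made 4008 and 1857 CPM. Plasmacytoid dendritic-like cells had 4273 and 3319 CPM, of which Bst2, a marker used to name them, made 1760 and 1436 CPM. The state led by Ly6i and Nos2, in which the haemoglobin genes Hbb-bs and Hbb-bt were also leading genes, had 2568 and 3033 CPM, and the other 5 states had between 1152 and 1869 CPM.

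**Figure D1:**
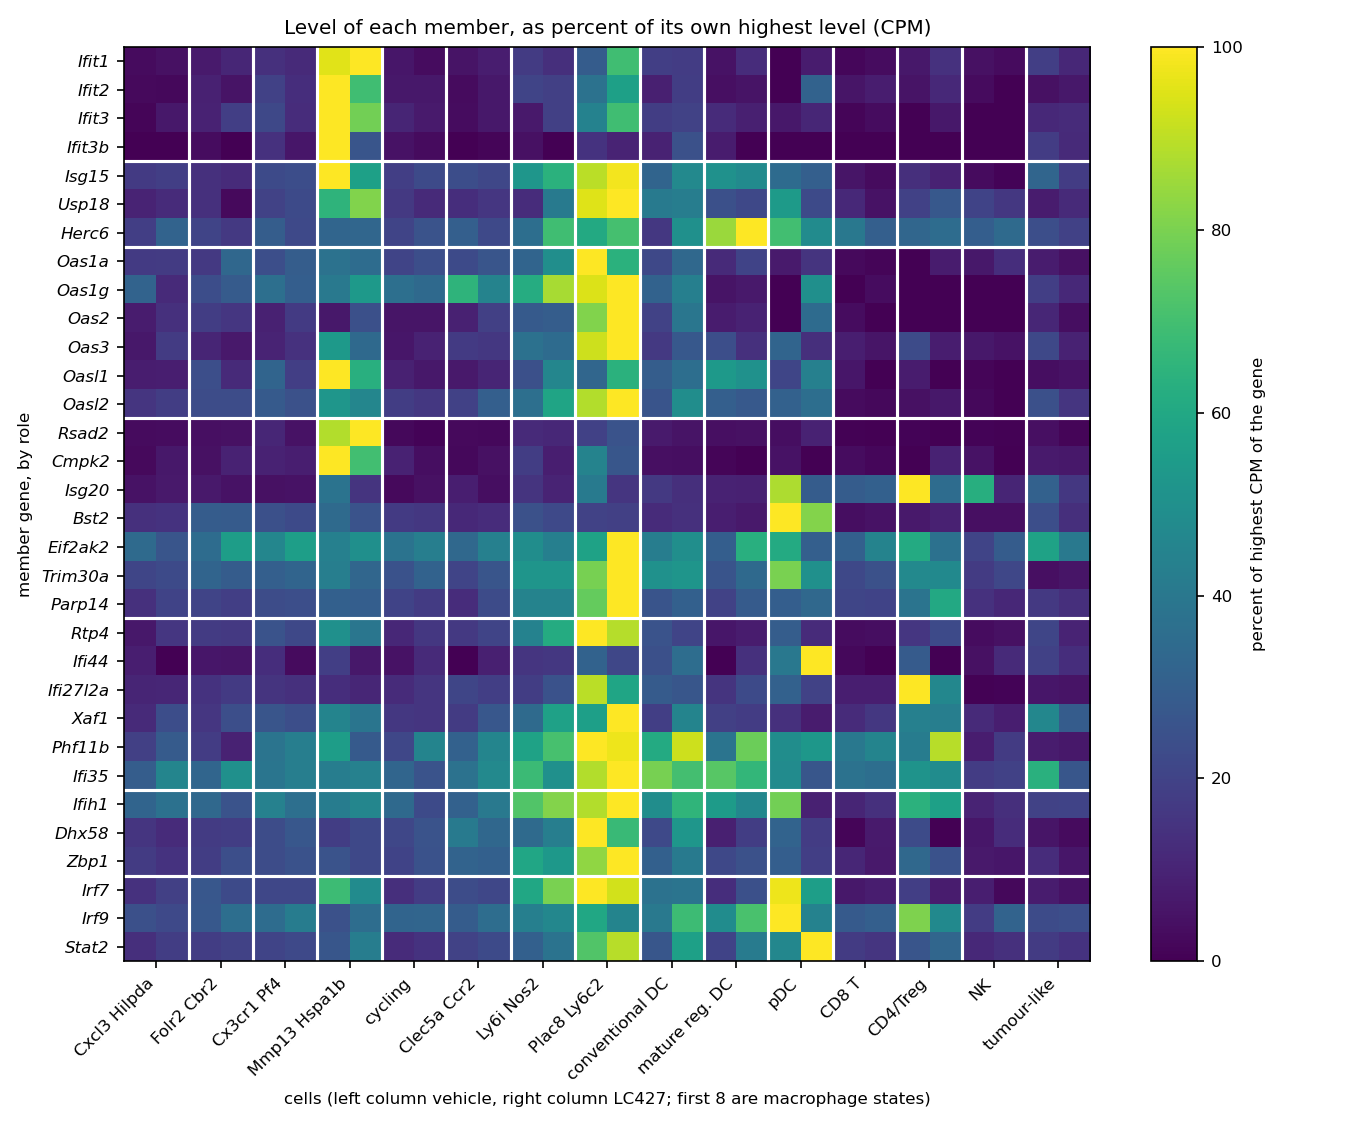
Level of each listed gene by macrophage state and cell class, as a percent of that gene's own highest CPM. Each state or class has a pair of columns, vehicle on the left and LC427 on the right. The Plac8 Ly6c2 and Mmp13 Hspa1b states and plasmacytoid dendritic-like cells hold most of the highest values, and NK-like cells are low for most genes.

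The IFIT proteins bind foreign RNA at its 5′ end and hold back its translation. Their genes were concentrated in the Mmp13 Hspa1b state, where Ifit1 had 124.7 and 131 CPM, against 3.59 and 5.94 CPM in the state led by Cxcl3 and Hilpda. In the Plac8 Ly6c2 state Ifit1 had 38.2 and 90.8 CPM, a ratio of 2.38 (1.23 to 4.96), which turned to a log2 ratio of -0.32 with a limit of 5% mitochondrial UMIs. Ifit2 and Ifit3 were 1.5-fold (0.855 to 2.73) and 1.57-fold (0.794 to 3.28) as high in that state, with intervals that span 1, and both turned below 1 under 1 or more alternatives. Ifit3b was the listed gene with the lowest level in the whole macrophage-like class, 2.45 and 1.08 CPM from 37 and 12 UMIs, a ratio of 0.441 (0.209 to 0.864). Its reads and those of Ifit3 may not be separable.

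Rsad2 encodes viperin, which makes a chain-terminating nucleotide, and Cmpk2, its neighbour, encodes a nucleotide kinase. Rsad2 was high in 1 state above all, with 424 and 480 CPM in Mmp13 Hspa1b cells, 92.2 and 123 CPM in Plac8 Ly6c2 cells, and 10.7 and 4.24 CPM in cycling macrophages. In the state led by Cx3cr1 and Pf4, Rsad2 went from 52.3 to 24.1 CPM, a ratio of 0.459 (0.328 to 0.636), which turned above 1 in 2 of 12 alternatives, to a log2 ratio of 0.66 at a clustering resolution of 0.5. Cmpk2 had 128 and 89.6 CPM in Mmp13 Hspa1b cells. Both genes thus had their highest pooled level in the same state in both libraries. Whether the same single cells held both was not tested. In that state 15% of vehicle and 15.4% of LC427 cells had no UMI of any listed gene. The state also depends on the clustering: with each library clustered alone, it held 0 vehicle and 484 LC427 cells.

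Isg15 encodes a ubiquitin-like modifier that is attached to other proteins, and Usp18 removes it and damps the receptor. In all macrophage-like cells Isg15 had 124.8 and 142 CPM, above the 60.4 and 62.5 CPM of empty droplets, a ratio of 1.14 (1.07 to 1.22). It was not alike across states. In Mmp13 Hspa1b cells it went from 451 to 257 CPM, a ratio of 0.569 (0.488 to 0.663), in Plac8 Ly6c2 cells the levels were 404 and 443 CPM, and in Ly6i Nos2 cells 237 and 288 CPM. The lower value in Mmp13 Hspa1b cells depends on how the cells are divided: at log2 it was -0.81 here and 1.00 when interferon genes took part in the clustering. Usp18 had 13.0 and 18.5 CPM over the class, a ratio of 1.43 (1.17 to 1.75). Herc6, whose product attaches ISG15, had 13.4 and 16.1 CPM, under the 26.0 and 35.6 CPM of empty droplets.

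**Figure D2:**
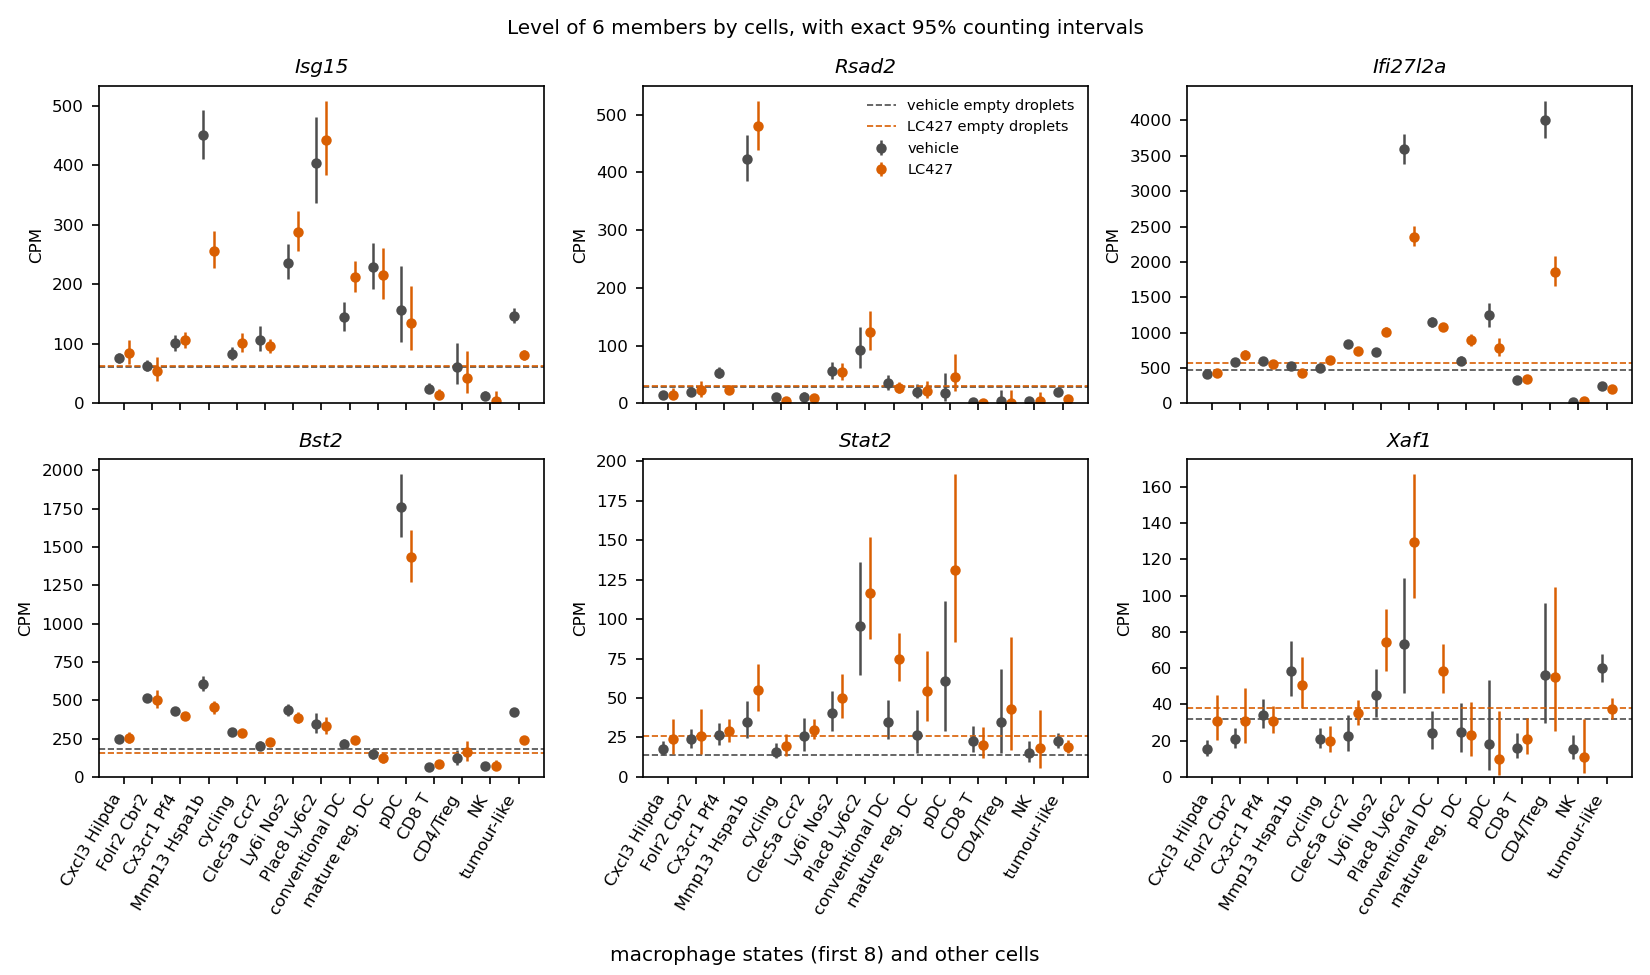
CPM of Isg15, Rsad2, Ifi27l2a, Bst2, Stat2 and Xaf1 by macrophage state and cell class in vehicle and LC427, with 95% Poisson intervals for counting error and dashed lines at the level of empty droplets. Rsad2 reaches 424 and 480 CPM in Mmp13 Hspa1b cells and Bst2 its highest level in plasmacytoid dendritic-like cells, a class named in part by Bst2.

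The OAS enzymes answer double-stranded RNA by making 2-5A, which activates RNase L, and OASL proteins are their relatives. Oas2 was the only listed gene that was higher in the whole macrophage-like class, at 5.42 and 9.17 CPM, a ratio of 1.69 (1.25 to 2.29). Oas1a had 38.5 and 51.2 CPM there, and its ratio varied by state. In the state led by Folr2 and Cbr2, genes of resident-type macrophages, it went from 27.1 to 55.3 CPM, a ratio of 2.04 (1.30 to 3.12). With interferon genes in the clustering that log2 ratio was 0.105, against 1.03 here. In Ly6i Nos2 cells the ratio was 1.53 (1.08 to 2.18), which turned to a log2 ratio of -0.11 with doublets kept, and in Plac8 Ly6c2 cells it was 0.640 (0.424 to 0.965), from 165 to 106 CPM. Oasl1 went from 57.6 to 36.2 CPM in Mmp13 Hspa1b cells, a ratio of 0.629 (0.408 to 0.958), which turned above 1 under 3 alternatives. Oasl2 went from 35.7 to 56.6 CPM in Ly6i Nos2 cells, 1.59-fold (1.04 to 2.46).

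Among the other effectors, Bst2 encodes tetherin, which holds budding virus at the cell surface. It had 369 and 327 CPM in macrophage-like cells, a ratio of 0.885 (0.848 to 0.923), and was one of 2 members with an interval below 1 there. Its levels were highest in plasmacytoid dendritic-like cells, at 1760 and 1436 CPM in 43 and 65 cells that were also led by immunoglobulin genes. Bst2 is one of the markers by which that class was named, so its high level there is not an independent result. Its levels were lowest in CD8 T-like (65.5 and 85.6 CPM) and NK-like cells (73.2 and 72.4 CPM). Eif2ak2, which encodes the kinase PKR that stops translation, had 19.5 and 24.4 CPM in macrophage-like cells, under the 30.9 and 34.6 CPM of empty droplets. Trim30a and Parp14 had 66.4 and 75.9 CPM, and 51.5 and 63.2 CPM. Isg20, an RNA exonuclease gene, was low in macrophage-like cells, at 6.02 and 4.59 CPM.

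Ifi27l2a, an interferon-induced gene of the ISG12 family, had the highest level of the list in macrophage-like cells, 613 and 715 CPM, a ratio of 1.17 (1.13 to 1.2). Empty droplets held it at 475 and 572 CPM, so free RNA lay close to that level in both libraries. The Plac8 Ly6c2 state stood far above it, at 3591 and 2358 CPM, a ratio of 0.657 (0.604 to 0.714). In Ly6i Nos2 cells it went the other way, from 723 to 1015 CPM, a ratio of 1.40. Xaf1, which encodes a binder of apoptosis inhibitors, had 27.3 and 40.8 CPM over the class, a ratio of 1.49 (1.30 to 1.71), with 31.7 and 38.0 CPM in empty droplets. It was 1.65-fold (1.13 to 2.41) as high in Ly6i Nos2 cells and 1.77-fold (1.08 to 3.0) in Plac8 Ly6c2 cells. Phf11b had a class ratio of 1.49 (1.33 to 1.67), from 37.2 to 55.5 CPM, under the 47.1 and 76.2 CPM of empty droplets. In Mmp13 Hspa1b cells Phf11b went from 68.9 to 35.3 CPM, a log2 ratio of -0.97 that was 0.93 with interferon genes in the clustering. Rtp4, Ifi35 and Ifi44 had class ratios of 1.36, 1.2 and 0.874.

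The sensors Ifih1 (MDA5), Dhx58 (LGP2) and Zbp1 detect foreign or Z-form nucleic acid. Zbp1 was the most abundant of them in macrophage-like cells, with 60.5 and 76.0 CPM, under the 70.2 and 95.4 CPM of empty droplets. It reached 204 and 244 CPM in Plac8 Ly6c2 cells. Ratios over the class were 1.26 for Zbp1, 1.27 for Dhx58 and 1.08 (0.916 to 1.28) for Ifih1.

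Of the signalling factors, Stat2 and Irf9 are parts of the complex that binds the response element, and Irf7 amplifies interferon production. Stat2 had 25.1 and 35.5 CPM over the class, a ratio of 1.41 (1.22 to 1.63). Its ratio was above 1 in each of the 8 macrophage states, from 1.07 in Cx3cr1 Pf4 cells to 1.58 (1.03 to 2.46) in Mmp13 Hspa1b cells, with the highest levels in Plac8 Ly6c2 cells (95.4 and 117 CPM). Free RNA moved with it: empty droplets held Stat2 at 14.1 and 26.2 CPM, and its part in the result was not tested. Irf9 had 28.0 and 33.99 CPM and Irf7 43.5 and 51.6 CPM over the class, both under their empty droplets in LC427 (37.3 and 86.0 CPM).

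Read as a list, the macrophage-like class showed small ratios above 1. All 32 members were measured, with a median log2 ratio of 0.28 against 0.13 over all measured genes. At 1.5-fold 1 was higher, against a background of 10.5% of genes, and 1 was lower (Ifit3b), against 6.38%. Intervals lay above 1 for 21 of the 32 (65.6%) and below 1 for 2, where 31.1% and 13.7% of all genes had such intervals. This depended on which states each library held: the Clec5a Ccr2 state had 293 vehicle and 1157 LC427 cells, while the Folr2 Cbr2 state had 653 and 184. With the 8 states weighted alike in both libraries the median was 0.046, with 19 members above and 13 below 1. The members' summed level was 1819 and 2070 CPM. Other markers moved with it in these cells: the 10 conventional dendritic markers summed to 291 and 480 CPM and the 12 macrophage markers to 13494 and 10097 CPM, all of them above 0. Their part in the result was not tested.

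By state the members moved in both directions. In Clec5a Ccr2 cells 9 of 29 measured members were higher (background 20.3%) and 0 lower (5.29%), with a median of 0.30 against 0.18 over all genes. Ly6i Nos2 cells had 7 of 29 higher (20.2%) and 1 lower (7.82%), and a median of 0.28 against 0.19. Cxcl3 Hilpda cells had 6 of 24 higher (13.6%) and 1 lower (10.6%), and a median of 0.18 against 0.079. In Plac8 Ly6c2 cells 6 of 29 were higher (15.5%) and 3 lower (14.5%), with a median of 0.18 against -0.0010. Mmp13 Hspa1b cells, which carried the highest Ifit levels, had 1 of 30 higher (20%) and 6 lower (6.82%), and a median of -0.22 against 0.16. That last median changed sign in 5 of 9 alternatives and was 0.89 with interferon genes in the clustering. The Folr2 Cbr2, Cx3cr1 Pf4 and cycling states had medians within 0.01 of 0. Over all genes the median was 0.12 in Folr2 Cbr2 and 0.15 in Cx3cr1 Pf4 cells. Folr2 Cbr2 cells had 6 of 29 members higher (16.6%) and 5 lower (10.7%). Cx3cr1 Pf4 cells had 1 of 29 higher (14.9%) and 3 lower (5.45%), and cycling cells 2 of 28 higher (11.6%) and 4 lower (7.99%).

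**Figure D3:**
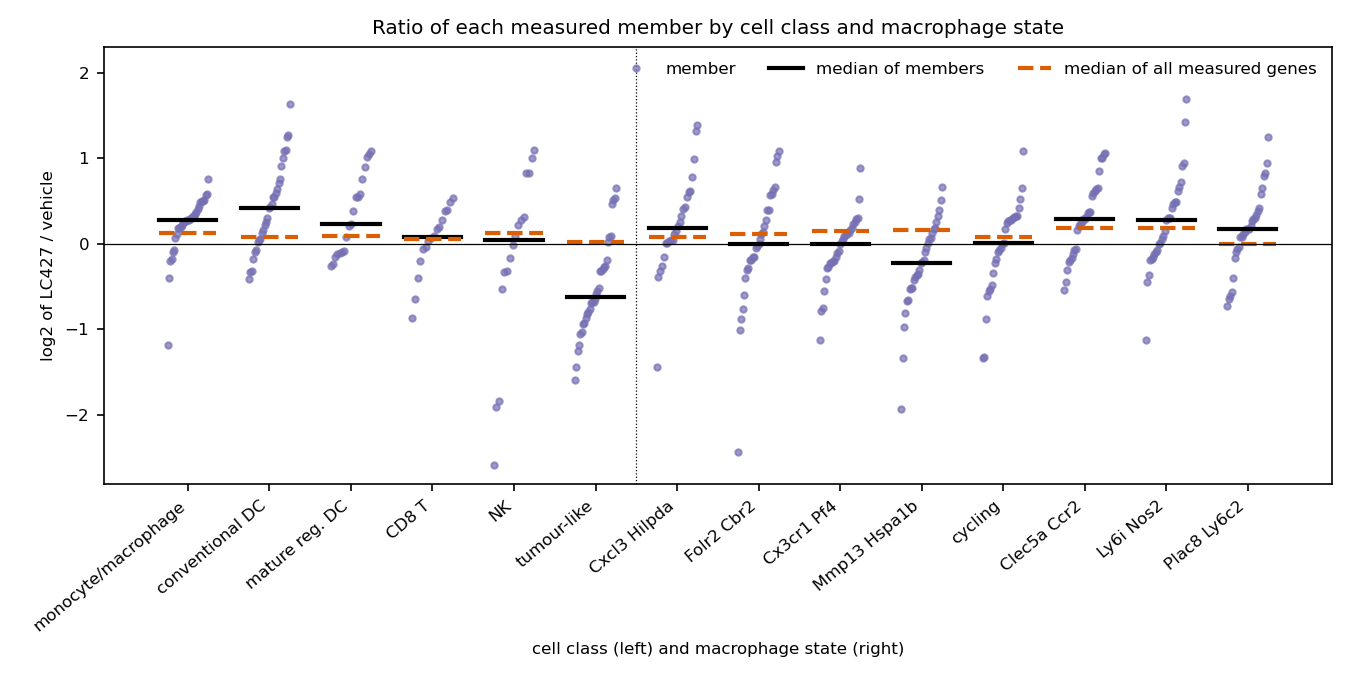
Log2 ratio of LC427 to vehicle for each measured listed gene (points) by cell class and macrophage state, with the members' median in black and the median of all measured genes as a dashed orange line. Conventional dendritic-like cells have the highest class median, 0.42, and tumour-like cells the lowest, -0.61.

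Conventional dendritic-like cells, which take up and present antigen, had the highest median ratio of the 6 classes compared. Of 30 measured members 11 were higher (background 15.7%) and 0 lower (8.54%), and the median log2 ratio was 0.42 against 0.084 over all genes. Intervals lay above 1 for 10 members, 33.3% against 9.85% of all genes, and below 1 for 0 against 7.89%. In this class the 10 conventional dendritic markers summed to 1709 and 1577 CPM and the 12 macrophage markers to 3430 and 3513 CPM. Empty droplets held the macrophage markers at 5942 and 5367 CPM, and their part in the result was not tested. The class joined 2 clusters. One was led by Retnla, Ccl17, Ear2 and Mgl2, with Lyz1 also among its leading genes (135 and 353 cells, 78.5% and 89.4% of the class). The other was led by Plet1, Wdfy4 and Itgae (37 and 42 cells, 21.5% in vehicle and 10.6% in LC427). With both weighted alike in the 2 libraries the median was 0.34, with 11 members higher and 1 lower. Stat2 went from 34.8 to 74.6 CPM, a ratio of 2.14 (1.43 to 3.28), with 14.1 and 26.2 CPM in empty droplets. Irf9, its partner, went from 36.9 to 62.3 CPM, a ratio of 1.69 (1.12 to 2.58), with 25.7 and 37.3 CPM in empty droplets. Both of these genes for the response complex were thus among the higher members. Both were also higher in the empty droplets of LC427, and the part of free RNA was not tested.

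Among members that reached 50 CPM in these cells, Xaf1 had the ratio farthest above 1, 2.41 (1.49 to 4.02), from 24.3 to 58.4 CPM, with 31.7 and 38.0 CPM in empty droplets. The OAS family had 4 of 6 members higher, Oas1a among them at 35.9 and 56.1 CPM, a ratio of 1.56 (1.03 to 2.42), which turned to a log2 ratio of -0.65 with thinned cells. Phf11b had 76.0 and 115 CPM, 1.51-fold (1.13 to 2.03), with 47.1 and 76.2 CPM in empty droplets. Isg15, at 145 and 212 CPM, had a ratio of 1.47 (1.19 to 1.81), just under the 1.5-fold line. Below 50 CPM, Herc6 (8.45 and 26.1 CPM), Dhx58 (12.7 and 30.0 CPM) and Ifit2 (13.7 and 29.2 CPM) were also higher. Herc6 and Ifit2 lay under their empty droplets, at 26.0 and 35.6 CPM and at 32.8 and 36.3 CPM. Ifi27l2a, Bst2 and Rsad2 were not higher: the first had 1154 and 1077 CPM, the second 214 and 241 CPM, and Rsad2 34.8 and 26.1 CPM. The class median held its sign in 13 of 13 alternatives but was 0.055 with cells of at least 2000 UMIs. A sub-cluster with T and myeloid markers, led by Cst3, Ccl17 and H2-Eb1 (38 and 93 cells), was not in this class. There Phf11b had 81.3 and 108 CPM, Stat2 43.8 and 42.5, Irf9 53.1 and 44.0, and Xaf1 53.1 and 39.5 CPM. Oas1a had 71.9 and 12.1 CPM and Isg15 319 and 188 CPM in those cells.

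In mature regulatory dendritic-like cells 19 members could be measured, of which 5 were higher (18.7%) and 0 lower (10.1%), with a median of 0.24 against 0.092. The 8 T cell markers summed to 235 and 524 CPM there and the 11 tumour markers to 112 and 254.9 CPM, with 7 of the latter at 0 in each library, and their part in the result was not tested. Stat2 went from 26.3 to 54.3 CPM, a ratio of 2.07 (1.07 to 4.12), and Phf11b from 47.7 to 96.1 CPM, 2.02-fold (1.24 to 3.33). Empty droplets held Stat2 at 14.1 and 26.2 CPM and Phf11b at 47.1 and 76.2 CPM. Isg15 had 228 and 215 CPM and Ifi27l2a 600 and 898 CPM.

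**Figure D4:**
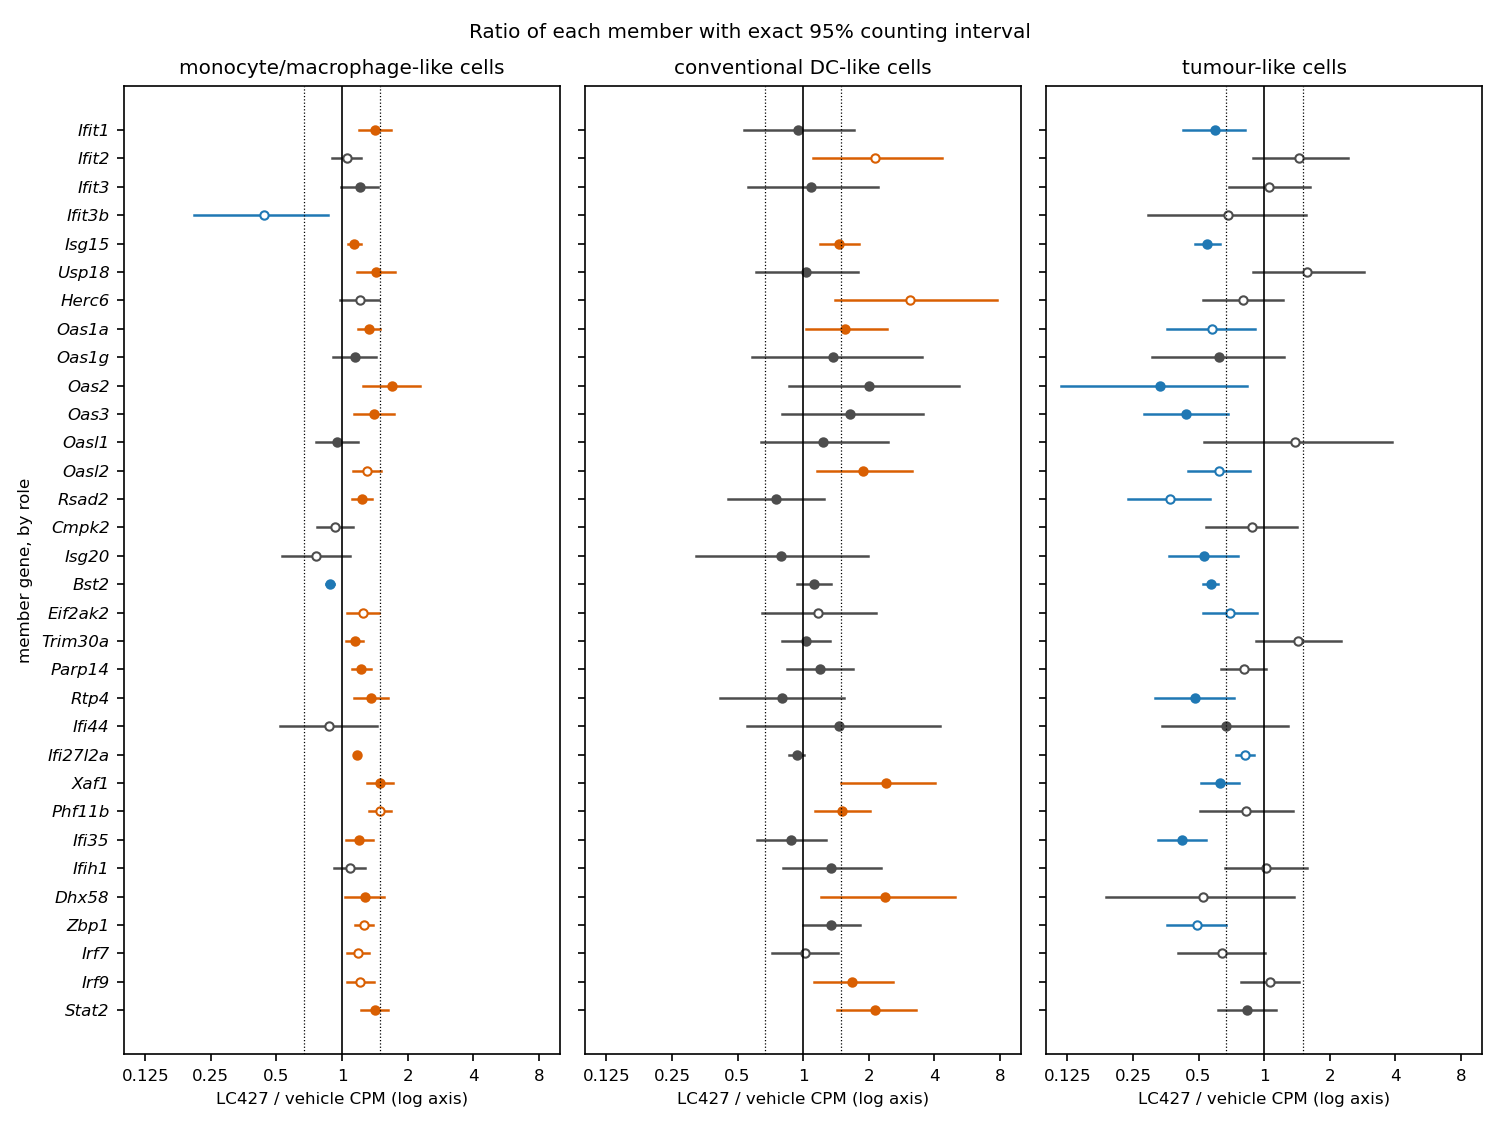
Ratio of LC427 to vehicle for each listed gene in monocyte/macrophage-like, conventional dendritic-like and tumour-like cells, on a log axis with 95% counting intervals (orange above 1, blue below 1, grey spanning 1). Open points mark genes whose level is below that of empty droplets, and dotted lines mark 1.5-fold; tumour-like cells hold 15 of the blue intervals.

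Tumour-like cells showed the opposite direction. Of 32 measured members 16 were lower in LC427 (background 10.3%) and 1 was higher (8.42%), and the median log2 ratio was -0.61 against 0.02 over all genes. Intervals lay below 1 for 15 members, 46.9% against 16.5% of all genes, and above 1 for 0 against 16.3%. Bst2 went from 423 to 241 CPM, a ratio of 0.568 (0.526 to 0.614), above the 185 and 159 CPM of empty droplets. Isg15 went from 147 to 80.7 CPM, a ratio of 0.548 (0.479 to 0.625), and Xaf1 from 59.9 to 37.5 CPM, 0.627 (0.512 to 0.766). With cells thinned to 1000 UMIs the log2 ratio of Xaf1 turned to 0.21, while Bst2 and Isg15 stayed below 0 in all 14 alternatives. All 3 lay above the empty droplets in vehicle, and Xaf1 was level with them in LC427 (38.0 CPM).

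At lower levels the OAS family had 5 of 6 members lower, Oas3 among them at 16.4 and 7.20 CPM, and Ifi35 had 48.1 and 20.3 CPM, a ratio of 0.422 (0.325 to 0.543). The sensor gene Zbp1 had 30.7 and 15.1 CPM, under the 70.2 and 95.4 CPM of empty droplets. Stat2 and Irf9 had ratios of 0.833 (0.613 to 1.13) and 1.06 (0.786 to 1.44). Of the 32 members, 20 lay under the empty droplets in the library where they were higher. Among the other 12, 10 were lower, with a median of -0.84. That limit looks only at the library where a gene is higher, so these 12 cannot decide the direction. Few cells carried much of the signal: the 10 cells richest in member UMIs held 38.9% of them in vehicle and 29.9% in LC427. Without those cells the median was -0.34 with 9 of 23 measured members lower, and Isg15 had a log2 ratio of -0.39. The vehicle cells were also deeper, with a median of 20928 against 10940 UMIs, and with each cell thinned to 1000 UMIs only 4 members could be measured, of which 2 were lower.

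Among the classes compared, CD8 T-like and NK-like cells had the lowest summed levels of the 32 members, 812 and 835 CPM in the first and 410 and 398 CPM in the second. In CD8 T-like cells 16 members were measured, of which 0 were higher (13.9%) and 2 lower (11%), with a median of 0.078 against 0.053. Ifi27l2a led there with 336 and 343 CPM, under the 475 and 572 CPM of empty droplets, and Isg15 had 25.1 and 13.7 CPM, a ratio of 0.547 (0.266 to 1.06). NK-like cells had 16 measured members, 4 higher (22.7%) and 3 lower (17.1%), and a median of 0.040. Isg20 went from 43.4 to 7.24 CPM there, on 64 and 2 UMIs, a ratio of 0.167 (0.0198 to 0.628). Of the 64 vehicle UMIs 42 came from a sub-cluster led by Gzmg that had 44 vehicle and 5 LC427 cells, and without it the NK median was -0.52.

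Per cell, the programme was sparse. With every cell thinned to 1000 UMIs, macrophage-like cells had a mean of 1.43 detected members in vehicle and 1.63 in LC427; at full depth the order was the other way, 3.64 and 3.17. At least 5 members were detected in 4.28% (3.63 to 5.02, exact binomial interval) of vehicle and 6.55% (5.79 to 7.37) of LC427 macrophage-like cells. The share was 20.5% and 23.2% in Plac8 Ly6c2 cells, 14.6% and 14.3% in Mmp13 Hspa1b cells, and 7.46% and 11.6% in Ly6i Nos2 cells. In conventional dendritic-like cells vehicle had 3.49% (1.29 to 7.44) and LC427 had 9.11% (6.47 to 12.4). CD8 T-like cells had 1.2% and 0.230%, which serves as a level for cells with little of the programme. Across the thinned macrophage-like cells, the rank correlation of a member with the sum of the others was highest for Isg15, 0.24 in vehicle and 0.29 in LC427. It was lowest for Irf9, 0.01 and 0.03, and all members share free RNA.

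**Figure D5:**
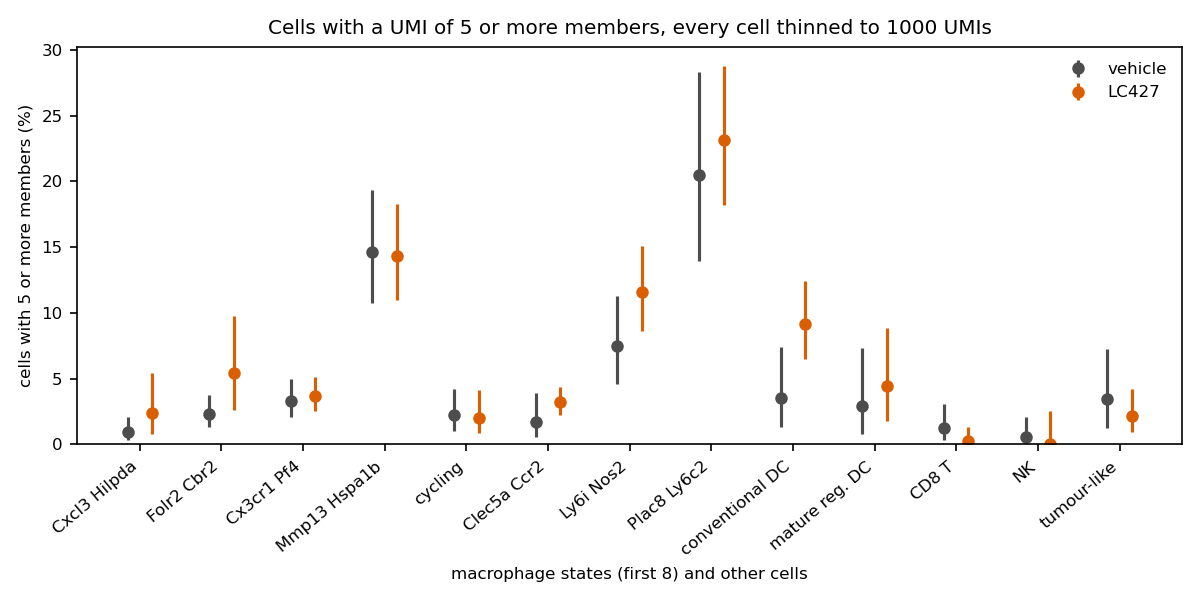
Percent of cells with at least 5 of the 32 listed genes detected after thinning each cell to 1000 UMIs, by class and macrophage state in vehicle and LC427, with 95% exact binomial intervals for counting error. Plac8 Ly6c2 cells stand highest in both libraries at 20.5% and 23.2%.

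The rest of the pathway was read from lists of other genes, against the same backgrounds as above for each class. Of the interferon genes themselves, 21 were listed and 4 had any UMI in the kept cells. No interferon alpha gene had one. Ifnb1, the interferon beta gene, had 0 UMIs in 5025 vehicle cells, which allows up to 0.0597% of cells to hold a UMI of it and sets no limit on cells that express it, and 6 UMIs in 4 LC427 cells, of which 5 UMIs lay in 3 Mmp13 Hspa1b cells. Ifng, made mostly by T and NK cells, had 779 UMIs in vehicle and 522 in LC427, out of 25417162 and 21187132 UMIs of the kept cells. Scaled to these, its log2 ratio was -0.31. NK-like cells numbered 350 and 142, and their part in it was not tested.

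Genes of the receptor and its kinases bring the signal into the cell. In macrophage-like cells Ifnar1 had 56.8 and 61.6 CPM and Ifnar2 120 and 92.5 CPM, and 0 of 8 measured receptor and kinase genes were higher or lower. Irf1 had 81.5 and 86.3 CPM there and Irf3 25.3 and 30.7 CPM. Of 31 other type I interferon-induced genes 7 were higher and 0 lower, led by Ms4a4c at 30.1 and 58.8 CPM, with 22.5 and 49.4 CPM in empty droplets. Samhd1, a nucleotide hydrolase gene, had 283 and 481 CPM, with 260 and 437 CPM in empty droplets. Genes leaning to interferon gamma had 5 of 15 higher and 0 lower, Gbp2 among them at 219 and 351 CPM, with 208 and 312 CPM in empty droplets. The medians of these 2 lists, 0.34 and 0.38, stood beside 0.28 for the antiviral genes.

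Both lists had their highest median of these classes in conventional dendritic-like cells, 0.44 and 0.68, and their lowest in tumour-like cells, -0.28 and -0.83. In conventional dendritic-like cells 12 of 28 other induced genes and 9 of 15 gamma-leaning genes were higher and 0 were lower, with Igtp at 35.9 and 77.7 CPM. In tumour-like cells 6 of 27 other induced genes and 8 of 12 gamma-leaning genes were lower, while 1 and 0 were higher. Apol9a and Apol9b, which stood at or below 3.17 CPM in conventional dendritic-like cells, had 57.1 and 24.9 CPM, and 60.9 and 33.6 CPM, in tumour-like cells. Empty droplets held Apol9a at 1.90 and 3.69 CPM, far below the level of these cells. Ly6a went from 1428 to 814 CPM, Gbp2 from 275 to 161 CPM and Irf1 from 108 to 60.2 CPM in tumour-like cells. In CD8 T-like cells Ifnar1 had 76.6 and 49.6 CPM and the phosphatase gene Ptpn2 61.3 and 110 CPM.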

How the data were processed

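The deposited values are unfiltered tables of UMI counts per gene and barcode, made by the authors from 10x 5′ libraries. Cell Ranger 3.0.1, Seurat 3 and the mouse build GRCm38 (mm10) are named per the submitters' processing notes; the table headers name Cell Ranger 4, so the version is uncertain. Cells needed at least 1000 UMIs, 400 genes and at most 10% mitochondrial UMIs. Scrublet called 0 doublets in both libraries and was taken not to have worked, so the 220 and 320 highest-scoring barcodes were left out (0.8% per 1000 cells). Both libraries were clustered together, without integration, with scanpy 1.11.5 and leidenalg 0.10.2 in Python 3.11.15 (2000 variable genes excluding all interferon lists, 30 components, 20 neighbours, resolution 1). A class name needed 3 markers, each seen in 10% or more of the cells of a cluster, a rule written after the cells per cluster were seen. Sub-clusters with T and myeloid markers (71 and 282 cells, and 38 and 93 cells) were set aside, 109 and 375 cells in all. UMIs were summed per class and library, with exact Poisson intervals for levels and exact conditional binomial intervals for ratios; a count of 0 stands at 3 UMIs in a ratio. The interval script was tested on simulated data. Members named with full values had at least 50 CPM, 20 UMIs, a level no lower than empty droplets and at least 1.5-fold, up to 6 each way per class, plus the 3 of highest level; members given outside that rule were picked to cover their role. The members and gene lists were chosen with earlier results of these data known. Mx1 and Mx2 are not reported here. Alternatives varied the cell filters, depth, doublets, clustering, gene minimum and scaling; those on the weighting of states and clusters, the removal of cells or of a sub-cluster and the empty-droplet limit were chosen after seeing the data.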

Additional observations from a re-analysis of the deposited data

Results flagged for a closer look

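Among members that met the size rule for full values, ratios of LC427 to vehicle on opposite sides of 1, each with its interval off 1, flagged 2 genes. Other members outside that rule also had intervals on both sides of 1. Over the macrophage states Ifi27l2a had 3 intervals above and 3 below 1, and Phf11b 2 above and 1 below. Xaf1 had a ratio of 2.41 in conventional dendritic-like cells and 0.627 in tumour-like cells, where its log2 ratio turned to 0.21 with cells thinned to 1000 UMIs. Oas1a had ratios of 2.04 in Folr2 Cbr2 macrophages and 1.53 in Ly6i Nos2 macrophages but 0.640 in Plac8 Ly6c2 macrophages. In Ly6i Nos2 cells its log2 ratio turned to -0.11 with doublets kept, and in Folr2 Cbr2 cells it went from 1.03 to 0.105 with interferon genes in the clustering. A counting interval off 1 was a condition of the flag, so it adds no support. With 1 library a group, the difference between the cells was not tested.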

How the results depend on the processing

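No paired analysis was possible because each group has 1 library. With 1 library a group, no value separates treatment from mouse, tumour or library. The median log2 ratio of the listed genes kept its sign under every alternative run in macrophage-like (0.046 to 0.34, 13 alternatives), conventional dendritic-like (0.055 to 0.59, 13), mature regulatory dendritic-like (0.087 to 0.55, 12) and tumour-like cells (-0.84 to -0.27, 14). It kept it in 8 of 12 for CD8 T-like and 7 of 12 for NK-like cells. In macrophage-like cells it was 0.046 with states weighted alike.

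Counts moved more, and the cause was not tested beyond the smaller number of genes or cells. In macrophage-like cells the members higher were 2 with at least 2000 UMIs, thinning, doublets kept or resolution 2, 3 with libraries clustered alone or interferon genes among the variable genes, 4 with at least 500 UMIs and 0 with states weighted alike; those lower were 2 with thinning or states weighted alike and 0 among members no lower than empty droplets. In conventional dendritic-like cells those higher were 7 with at least 500 UMIs or interferon genes variable and 5 with thinning. Those lower were 4 at 2000 UMIs, 3 at 500 UMIs or with interferon genes variable, and 1 with at most 5% mitochondrial UMIs, thinning, doublets kept, libraries alone, resolution 0.5, resolution 2 or clusters weighted alike. In tumour-like cells those higher were 0 with thinning or the empty-droplet limit and 2 with libraries alone. Those lower were 2 with thinning, 10 with the empty-droplet limit and 9 without the 10 richest cells. The empty-droplet limit takes each member in the library where it is higher, so it does not test a direction. Mean members per macrophage-like cell were 3.64 and 3.17 without thinning.

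Single genes reversed mostly in small states. With interferon genes variable, log2 ratios were -0.58 for Ifit3 in Plac8 Ly6c2 cells and 1.00 for Isg15, 0.81 for Oasl1 and 0.93 for Phf11b in Mmp13 Hspa1b cells. At resolution 2 Isg15 and Oasl1 were 0.23 and 0.095 there, and with at most 5% mitochondrial UMIs Oasl1 was 0.16. That limit gave -0.32 for Ifit1 and -0.45 for Ifit3 in Plac8 Ly6c2 cells. Thinning gave -0.35 for Ifit2 in Plac8 Ly6c2, -0.65 for Oas1a in conventional dendritic-like and 0.21 for Xaf1 in tumour-like cells. With doublets kept, Oas1a in Ly6i Nos2 cells was -0.11 and Rsad2 in Cx3cr1 Pf4 cells 0.29, which was 0.66 at resolution 0.5. Several states fell under 100 cells in some alternatives and gave no value there, as did NK-like cells at 2000 UMIs.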

Other observations

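Among T cells, Ifi27l2a stood far above its level in other lymphocytes in CD4 or regulatory T-like cells, which were too few (92 vehicle and 89 LC427 cells) for the comparison by class. It had 4008 and 1857 CPM there, against 475 and 572 CPM in empty droplets. In the sub-cluster led by Il13 and Cd4 (37 and 13 cells) it had 7042 and 1997 CPM, and in the sub-cluster with Foxp3 (55 and 76 cells) 2501 and 1832 CPM. In plasmacytoid dendritic-like cells (43 and 65), Ifi27l2a had 1244 and 786 CPM, Irf7 158 and 90.7 CPM and Stat2 60.7 and 131 CPM.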
